A study of Rattus norvegicus with 6 samples.

Results

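The genes described here belong to the response to low oxygen: the transcription factor gene Hif1a, the 3 prolyl hydroxylase genes Egln1, Egln2 and Egln3 that hold its protein in check, and 5 genes known as its targets, Vegfa, Adm, Bnip3, Bnip3l and P4ha1. They were taken by gene symbol, with no threshold on measured values, although earlier results of these data were known when they were chosen. All 9 were found among the 19289 features of the deposited table, on 1 row each. Messenger RNA was sequenced from INS-1E cells, a clonal rat insulinoma line used as a model of the pancreatic beta cell. There were 3 libraries from cells given uric acid (UA) for 24 hours and 3 from untreated cells. The labels name no dose and no vehicle. Nor is it stated that libraries of a group came from separate cultures, so the p-values below measure only the spread between these libraries.

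HIF-1alpha, the protein of Hif1a, is made continuously and destroyed continuously while oxygen is present. The EGLN enzymes use oxygen to hydroxylate prolines on it, the von Hippel-Lindau protein (gene Vhl) binds the hydroxylated form, and the proteasome removes it. When oxygen is short the protein persists, pairs with ARNT and switches on genes of blood vessel growth, glycolysis, mitochondrial clearance and matrix formation. Some EGLN genes are themselves targets of HIF, which makes a feedback loop. Because the main control acts on the protein, the level of Hif1a messenger RNA does not report HIF activity, and no protein was measured here.

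Summed estimated counts were 41191819 to 48875962 in the uric acid libraries and 47858248 to 59092982 in the untreated libraries, and a full pair of reads adds up to 4 to such a count. All 8 fixed markers of the beta cell were above a mean of 1 FPKM (fragments per kilobase of transcript, scaled to sequencing depth), and their summed level was 66884 to 79458 FPKM with uric acid and 68185 to 82230 FPKM in untreated libraries. Of the fixed markers of other cell types that were matched, those of endothelium summed to at most 0.163 FPKM with uric acid and 0.225 FPKM untreated, and those of stroma to at most 0.715 FPKM with uric acid and 1.03 FPKM untreated. Those of leukocytes summed to at most 2.25 FPKM with uric acid and 1.65 FPKM untreated. The 1 matched alpha cell marker was detected, at 7.47 to 10.6 FPKM with uric acid and 5.46 to 10.2 FPKM untreated. In bulk RNA, fewer cells that carry a message and less message per cell cannot be told apart.

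Uric acid left most of the 9 genes within the spread of the libraries. Bnip3l, a mitophagy receptor, was 1.27-fold higher and P4ha1, a subunit of collagen prolyl hydroxylase, was 27.6% lower, both just past an adjusted p of 0.05 in edgeR's quasi-likelihood test with Benjamini-Hochberg adjustment over the 12460 features tested. Both calls were lost whichever library was left out, when 231 to 1173 features were called over all, against 994 with no library left out. In the fit of all libraries 7.98% of all tested features were called, 4.99% as higher and 2.99% as lower. At an unadjusted p under 0.05 there were 3 of the 9, beside 25.7% of tested features, and libraries of the groups did not overlap for 3 of the 9 (Bnip3l, Adm and P4ha1), beside 31.0%. The other 7 missed the threshold, and neither Hif1a nor Vegfa, the best known target, was among the changed genes. The median log2 fold change of the 9 was -0.12, beside 0.00 for all tested features, and the median size of the change regardless of sign was 0.17, beside 0.16. For 6 of the 9 the 95% interval of the change lay within 1.5-fold in either direction, which also held for 69.4% of tested features.

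**Figure D1:**
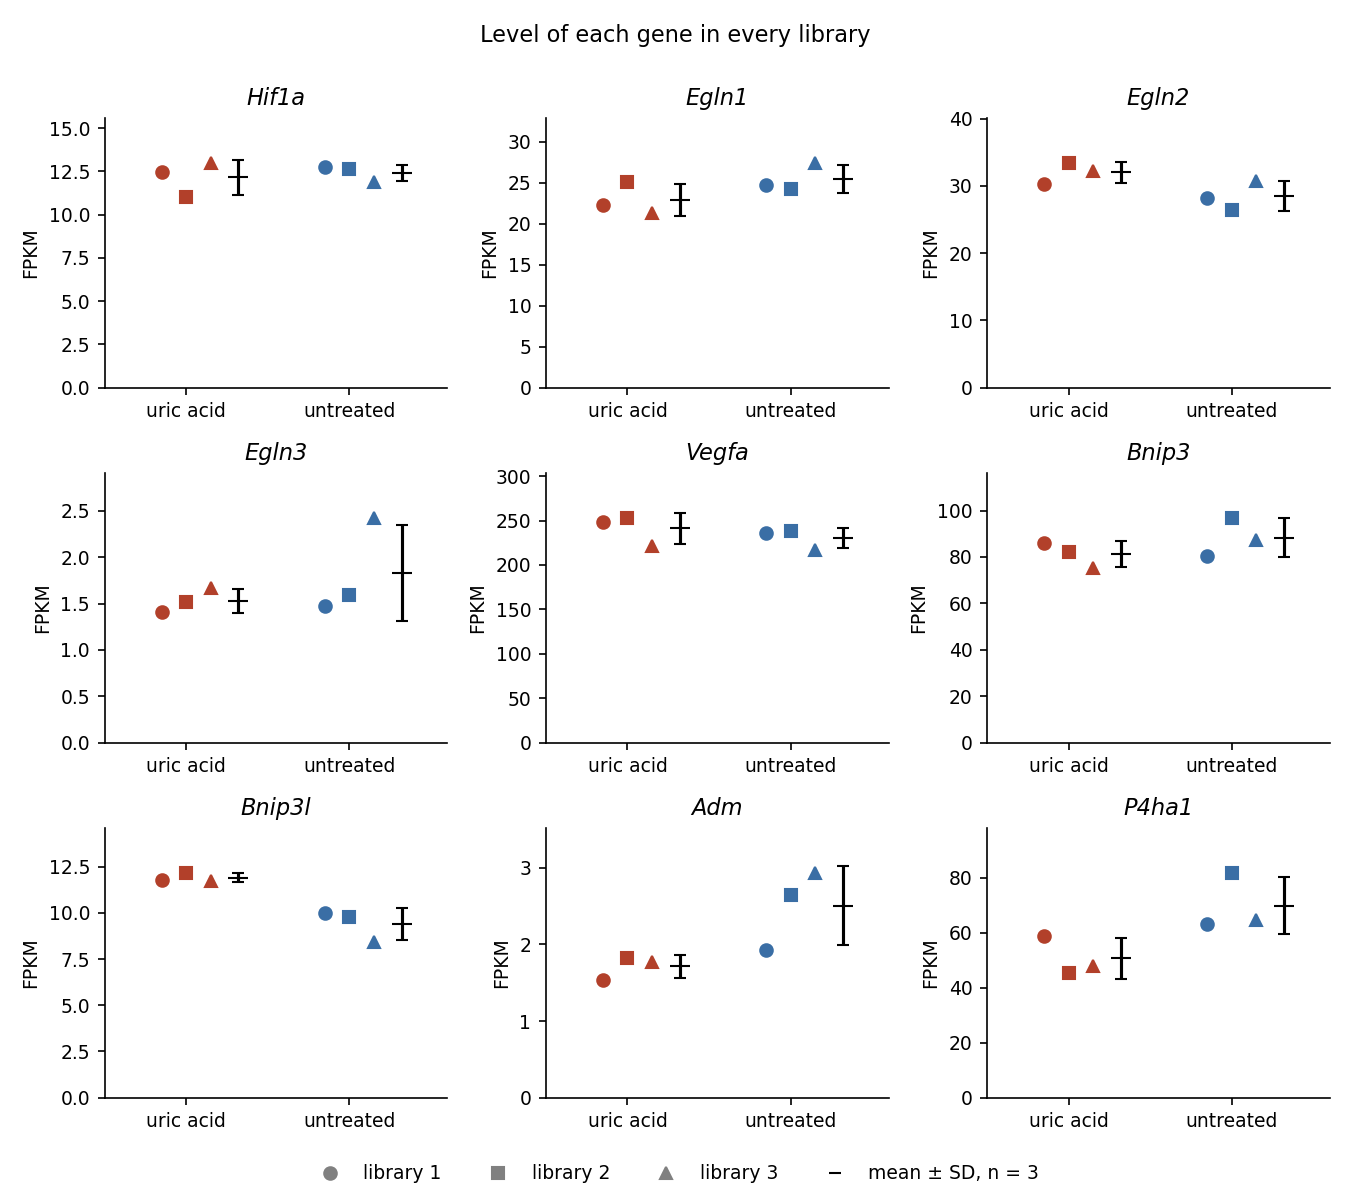
Level in FPKM (vertical axes, each from 0) of each of the 9 genes in the 3 uric acid libraries (red) and the 3 untreated libraries (blue); symbols are libraries and bars are the mean and SD of 3. The groups are apart for Bnip3l, Adm and P4ha1 and overlap for the other 6.

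The levels of the 9 genes spanned 140-fold on the FPKM scale. Vegfa stood highest with a mean of 236 FPKM over the 6 libraries, and was followed by Bnip3 at 84.7 and P4ha1 at 60.3 FPKM. Egln2 at 30.2 and Egln1 at 24.2 FPKM came next, then Hif1a at 12.3 and Bnip3l at 10.6 FPKM, and Adm at 2.11 and Egln3 at 1.68 FPKM were lowest. Library ranges overlapped for 4 neighbouring pairs in this order, Bnip3 with P4ha1, Egln2 with Egln1, Hif1a with Bnip3l, and Adm with Egln3. Adm and Egln3 also rest on few reads, with at most 240 and 402 estimated counts in any library.

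Hif1a did not differ between the groups beyond their spread. It had 12.5, 11.0 and 13.02 FPKM in the 3 uric acid libraries, against 12.8, 12.6 and 11.9 FPKM in the untreated libraries. The uric acid libraries include both the lowest and the highest value, so the groups overlap. The log2 fold change was -0.03 ± 0.08 (estimate ± SE; adjusted p = 0.848 in edgeR's quasi-likelihood test), and the 95% interval of the fold ran from 0.862 to 1.11. Hif1a (ENSRNOG00000008292) is listed on chromosome 6 from 96810907 to 96856052 on the plus strand. The deposited positions carry no build name. The others of the 9 on the plus strand are Vegfa (ENSRNOG00000019598) on chromosome 9 from 17340341 to 17355681, Adm (ENSRNOG00000027030) on chromosome 1 from 175445088 to 175447259, and P4ha1.

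The prolyl hydroxylases are the oxygen sensors of the pathway. Egln1 encodes PHD2, the main regulator of HIF-1alpha under normal oxygen, Egln2 encodes PHD1, and Egln3 encodes PHD3, which is strongly induced by hypoxia in many cells. All 3 are listed on the minus strand, Egln1 (ENSRNOG00000019773) on chromosome 19 from 57662278 to 57699113, Egln2 (ENSRNOG00000020947) on chromosome 1 from 83969457 to 83977236, and Egln3 (ENSRNOG00000005053) on chromosome 6 from 75050329 to 75075795. None of the 3 passed the threshold, and their estimates differ in sign. Egln1 had 22.3, 25.1 and 21.4 FPKM with uric acid, against 24.8, 24.3 and 27.5 FPKM in untreated libraries. Uric acid library 2 lies inside the untreated range, and the log2 fold change was -0.16 ± 0.11 (adjusted p = 0.422, edgeR). Egln2 had 30.3, 33.5 and 32.2 FPKM with uric acid, against 28.3, 26.5 and 30.8 FPKM untreated. Here the values overlap only through uric acid library 1 and untreated library 3, and the log2 fold change was 0.17 ± 0.08 (adjusted p = 0.255, edgeR). Egln3 had 1.41, 1.52 and 1.67 FPKM with uric acid, against 1.47, 1.598 and 2.43 FPKM untreated. Untreated library 3 stands apart from the other 5 values, and the log2 fold change of -0.26 ± 0.22 (adjusted p = 0.494, edgeR) became 0.01 without that library.

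The summed level of the 3 hydroxylase genes was 56.4 ± 3.24 FPKM with uric acid and 55.8 ± 4.36 FPKM untreated (mean ± SD, n = 3 each). Within this sum Egln1 and Egln2 took shares that did not overlap between the groups, in a design too small for the exact test to pass 0.05. In FPKM, 31.0% of tested features did not overlap, and no background was computed for shares. Egln3 takes little of the sum, so the shares of Egln1 and Egln2 nearly mirror each other and are not separate observations. Only the shares of Egln3 and Bnip3 were planned, and only these were rerun under other settings. The share of Egln2 was 56.1, 55.7 and 58.3% with uric acid, against 51.8, 50.6 and 50.7% untreated. The share of Egln1 was 41.2, 41.8 and 38.7% with uric acid, against 45.5, 46.4 and 45.3% untreated. The level of Egln2 exceeded Egln1 in every library. An exact two-sided permutation test of 3 libraries against 3 cannot go below p = 0.1, and it gave that value for both shares (0.133 adjusted over the 4 paralog shares tested). Egln3 made up 2.72 ± 0.26% with uric acid and 3.25 ± 0.673% untreated (n = 3 each), with overlapping values and an exact p of 0.2. These shares depend on the transcript models: the length implied by count and FPKM was 2.97 times as long for Egln2 as for Egln1. Egln2 also overlaps Cyp2t1 on the other strand, which is listed at a mean of 0.00307 FPKM.

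**Figure D2:**
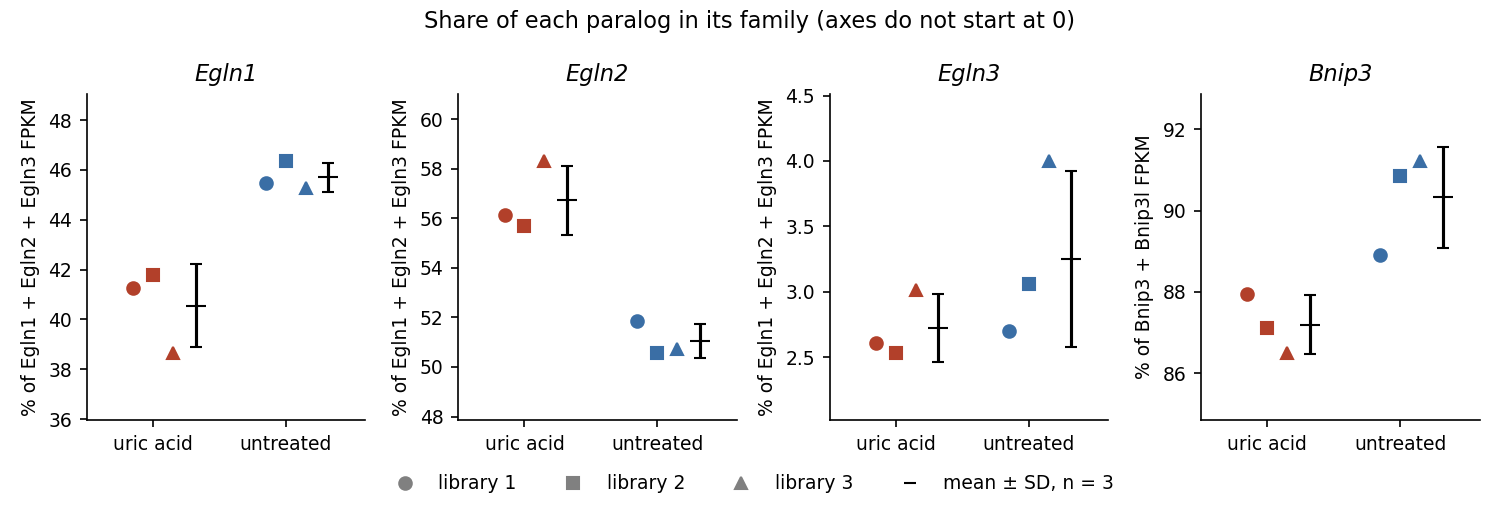
Share in percent of Egln1, Egln2 and Egln3 in the summed FPKM of the 3 genes, and of Bnip3 in the sum of Bnip3 and Bnip3l, per library (red, uric acid; blue, untreated; bars, mean and SD of 3; axes do not start at 0). Groups are apart for Egln1, Egln2 and Bnip3 and overlap for Egln3.

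Vegfa and Adm encode secreted products, a growth factor for blood vessels and a vasodilator peptide. Vegfa, highest of the 9, had 249, 253 and 221 FPKM with uric acid, against 236, 238 and 217 FPKM untreated. In both groups library 3 is lowest, and the groups overlap. Its log2 fold change was 0.07 ± 0.07 (adjusted p = 0.587, edgeR), with a 95% interval of the fold from 0.939 to 1.17, the narrowest of the 9. Adm had 1.54, 1.83 and 1.77 FPKM with uric acid, against 1.93, 2.64 and 2.94 FPKM untreated. All 3 uric acid libraries lie below all 3 untreated ones, as was the case for 14.2% of tested features. The log2 fold change of -0.55 ± 0.22 was the largest in size among the 9, yet missed the threshold at an adjusted p of 0.154 (edgeR). Its 95% interval ran from 0.487 to 0.96 as a fold.

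BNIP3 and NIX, the products of Bnip3 and Bnip3l, sit in the outer mitochondrial membrane and tether mitochondria to the autophagy machinery. Bnip3l rose with uric acid. It had 11.8, 12.2 and 11.7 FPKM with uric acid, against 10.01, 9.77 and 8.41 FPKM untreated, without overlap. The log2 fold change was 0.34 ± 0.09 (adjusted p = 0.0441, edgeR), with a 95% interval of the fold from 1.11 to 1.45. This call was lost whichever library was left out: the adjusted p was 0.118, 0.0753 and 0.0546 without uric acid library 1, 2 or 3, and 0.0791, 0.142 and 0.115 without untreated library 1, 2 or 3. It was also lost with limma on log2(FPKM + 1) (adjusted p = 0.066). Bnip3, the paralog known as the stronger hypoxia target, had 86.1, 82.3 and 75.2 FPKM with uric acid, against 80.3, 97.0 and 87.4 FPKM untreated. The groups overlap, and the log2 fold change was -0.12 ± 0.08 (adjusted p = 0.403, edgeR). The share of Bnip3 in the sum of both genes was 88.0, 87.1 and 86.5% with uric acid, against 88.9, 90.8 and 91.2% untreated. These shares do not overlap, and the exact permutation test gave its smallest p of 0.1 (0.133 adjusted). In FPKM, 31.0% of tested features did not overlap either.

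P4ha1 fell. The gene encodes the catalytic alpha subunit of the enzyme that hydroxylates prolines of collagen, a reaction that, like that of the EGLN enzymes, uses oxygen. It had 59.0, 45.3 and 47.8 FPKM with uric acid, against 63.1, 81.9 and 64.7 FPKM untreated. All uric acid values lie below all untreated values, with uric acid library 1 close to untreated library 1 and untreated library 2 well above the rest. The log2 fold change was -0.47 ± 0.12 (adjusted p = 0.0498, edgeR), with a 95% interval of the fold from 0.599 to 0.876. As with Bnip3l, the call was lost whichever library was left out, with adjusted p of 0.0602, 0.091 and 0.0975 without uric acid library 1, 2 or 3 and 0.0797, 0.186 and 0.0838 without untreated library 1, 2 or 3. With DESeq2 size factors in edgeR it stood at 0.0509, and with limma on log2(FPKM + 1) at 0.0756. P4ha1 (ENSRNOG00000050655) is listed on chromosome 20 from 28920616 to 28971966, Bnip3l (ENSRNOG00000009820) on chromosome 15 from 43643897 to 43667029, and Bnip3 (ENSRNOG00000017243) on chromosome 1 from 211248098 to 211265282.

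**Figure D3:**
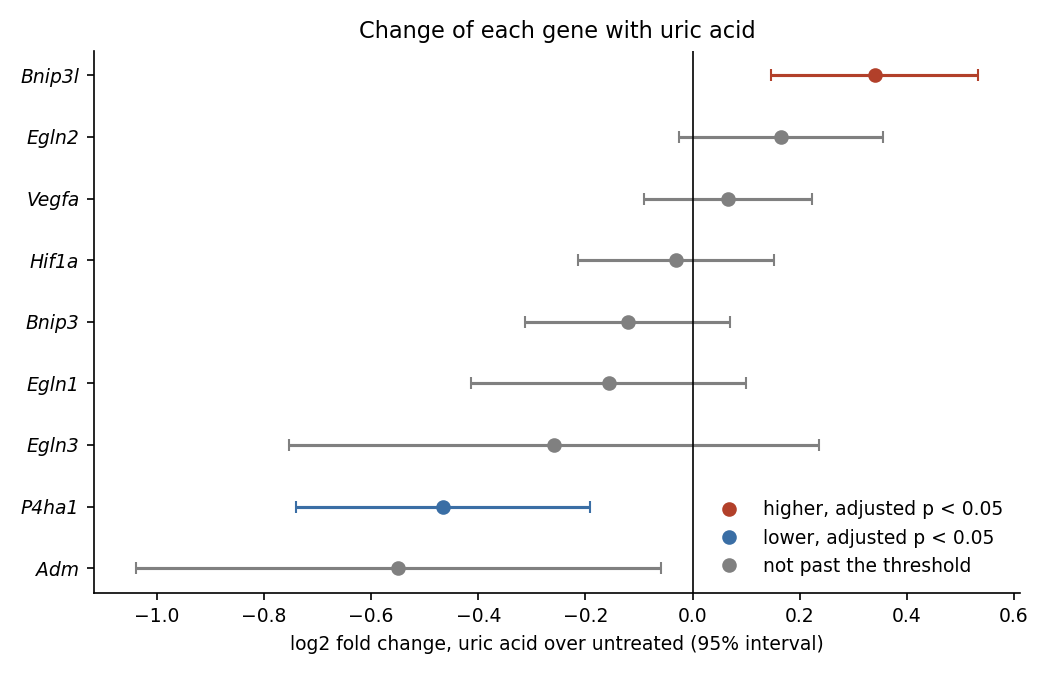
Log2 fold change of uric acid over untreated (horizontal axis, 0 means no change) for each of the 9 genes with its 95% interval from edgeR, sorted by size; red is higher and blue lower past an adjusted p of 0.05. Bnip3l lies at 0.34 and P4ha1 at -0.47, and the widest intervals belong to Adm and Egln3, the genes with the lowest counts.

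The 3 genes with the largest changes were set beside the features whose pattern over the 6 libraries was closest, by root mean square distance in log2(FPKM + 1) after subtraction of the untreated mean. For P4ha1 these were Tmem97 (distance 0.0437), Pfkp (0.0657) and Pgk1 (0.071), the last 2 encoding glycolytic enzymes. Pgk1 had 222, 167 and 177 FPKM with uric acid, against 218, 285 and 259 FPKM untreated, so that uric acid library 1 and untreated library 2 were the highest of their groups, as for P4ha1. For Bnip3l the closest were Cul4b (0.0362), Rbm41 (0.0387) and Clip3 (0.0402), and for Adm they were Caly (0.0513), Tomm40l (0.0615) and Alkbh7 (0.0746). Likeness in pattern, as between Pgk1 and P4ha1, follows from the choice by distance. These distances describe the 6 libraries and carry no test.

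HIF binds DNA at a short core, written here as ACGTG or GCGTG on either strand. The core was searched in RefSeq promoter windows of 300 bases, 250 before and 50 after the start, on build GRCr8, and 41.6% of all 33469 windows hold at least 1 match. ACGTG also forms part of CACGTG, an E-box bound by other factors. A CACGTG reads the same on both strands and was counted as 2 matches, as happened in the windows of Bnip3 and Hif1a. Windows were matched for 8 of the 9 genes, all but Bnip3l. The core was found for 4, with 4 matches in Bnip3, 3 in P4ha1, 3 in Hif1a and 2 in Egln1, and not in the windows of Egln2, Egln3, Vegfa (2 windows) or Adm. The element TGATGNAA, bound by C/EBP and ATF factors, was in none of them and in 3.98% of all windows. The 3 windows below show P4ha1, the gene that fell, Bnip3, which did not pass the threshold, and Adm. Bnip3 holds most matches only because its CACGTG counts on both strands. Adm holds no match and had the largest estimate. Capitals mark the core on either strand. They are P4ha1 at chr20:27844796-27845095 (plus strand), Bnip3 at chr1:203154913-203155212 (minus strand) and Adm at chr1:174179950-174180249 (plus strand).
P4ha1: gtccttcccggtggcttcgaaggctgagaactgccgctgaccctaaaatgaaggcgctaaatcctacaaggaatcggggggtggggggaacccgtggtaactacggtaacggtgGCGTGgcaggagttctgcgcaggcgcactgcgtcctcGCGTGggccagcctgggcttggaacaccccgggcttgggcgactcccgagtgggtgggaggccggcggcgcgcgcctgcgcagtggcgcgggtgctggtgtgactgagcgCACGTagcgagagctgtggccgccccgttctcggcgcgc
Bnip3: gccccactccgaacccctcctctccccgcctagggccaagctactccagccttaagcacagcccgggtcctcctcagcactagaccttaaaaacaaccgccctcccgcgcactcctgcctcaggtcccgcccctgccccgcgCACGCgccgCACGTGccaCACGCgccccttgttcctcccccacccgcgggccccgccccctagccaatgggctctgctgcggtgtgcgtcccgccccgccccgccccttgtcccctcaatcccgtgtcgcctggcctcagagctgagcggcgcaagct
Adm: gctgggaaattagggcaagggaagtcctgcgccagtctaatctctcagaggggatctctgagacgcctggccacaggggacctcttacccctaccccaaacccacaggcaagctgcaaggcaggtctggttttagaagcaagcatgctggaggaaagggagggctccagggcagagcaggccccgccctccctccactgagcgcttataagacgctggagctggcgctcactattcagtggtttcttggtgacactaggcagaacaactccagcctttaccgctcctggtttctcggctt
The windows of P4ha1 and Bnip3 are rich in G and C (68.3 and 71.3%) and that of Adm less so (58%). A match describes letters and not binding, and a window without one says nothing of the factor or of sites elsewhere.

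Estimates for regulators of the pathway went both ways. Of 16 tested genes of this list, 1 rose, none fell and 15 missed the threshold, with a median log2 fold change of 0.00. That is 6.25% called, beside 7.98% of all tested features. An unadjusted p under 0.05 was reached by 4 with a higher and 2 with a lower level, beside 25.7% of all tested features, and DESeq2 called 2 as higher and 0 as lower, beside 14.1% of features by that tool. Libraries of the groups did not overlap for 5 higher and 2 lower, beside 31.0%. The gene that rose was Cited2, whose product competes with HIF-1alpha for the coactivator p300. Cited2 had 51.4, 51.6 and 50.7 FPKM with uric acid, against 33.1, 42.0 and 40.4 FPKM untreated (log2 fold change 0.41 ± 0.09, adjusted p = 0.0301, edgeR). That call was lost without uric acid library 1 (0.109) and without untreated library 1 (0.0585), 2 (0.069) or 3 (0.0563), which left 0 genes of the list called in each case. Vhl, whose product marks HIF-1alpha for removal, stood at 19.1 ± 0.955 FPKM with uric acid and 16.5 ± 0.161 FPKM untreated (0.21 ± 0.07, adjusted p = 0.106). Arnt, the partner of HIF-1alpha, stood at 5.72 ± 1.36 FPKM with uric acid and 7.51 ± 0.578 FPKM untreated (-0.39 ± 0.17, adjusted p = 0.182). Epas1, which encodes HIF-2alpha, stood at 16.8 ± 3.15 FPKM with uric acid and 20.2 ± 0.834 FPKM untreated (-0.26 ± 0.12, adjusted p = 0.212). Hif1an, whose enzyme blocks coactivator binding to HIF, stood at 10.1 ± 2.61 FPKM with uric acid and 13.2 ± 1.93 FPKM untreated (-0.39 ± 0.18, adjusted p = 0.223) and passed as lower without uric acid library 3 (0.0395), where 2 genes of the list were called. SDs here and below are over the 3 libraries of a group.

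Hypoxia targets of glucose uptake and glycolysis were the list with the lowest median, -0.33 over 19 tested genes; 5 fell, none rose and 14 missed the threshold (edgeR; 26.3% called, beside 7.98% of all tested features in either direction and 2.99% as lower). An unadjusted p under 0.05 was reached by 13 lower and 1 higher, beside 25.7%, and DESeq2 called 9 lower and 1 higher, beside 14.1%. Libraries of the groups did not overlap for 8 lower and 0 higher, beside 31.0% in either direction and 14.2% as lower. For Gpi, Pgk1, Eno1, Pkm and Slc2a1, taken with their values in view, untreated library 1 lay below uric acid library 1. Genes of the list share the same libraries and are not separate observations. The gene higher at an unadjusted p under 0.05 was Ldha, named after its values were seen. Ldha had 2.55, 2.34 and 0.638 FPKM with uric acid, against 0.688, 0.901 and 0.689 FPKM untreated (log2 fold change 1.27 ± 0.44, adjusted p = 0.113, edgeR). It passed as higher in 1 of the fits with a library left out (0.00536). Pfkfb3, which makes an activator of phosphofructokinase, fell to 4.001 ± 0.171 FPKM with uric acid, against 6.60 ± 0.686 FPKM untreated (log2 fold change -0.72 ± 0.10, adjusted p = 0.00463), and was still called with each library left out in turn. Pfkp, a phosphofructokinase, fell to 28.5 ± 3.49 FPKM, against 40.7 ± 4.56 FPKM untreated (-0.51 ± 0.11, adjusted p = 0.0224). Tpi1, triosephosphate isomerase, fell to 59.6 ± 8.79 FPKM, against 84.8 ± 10.03 FPKM untreated (-0.51 ± 0.12, adjusted p = 0.0363). Pdk1, the kinase that closes pyruvate dehydrogenase and a standard HIF target, stood at 13.3 ± 1.87 FPKM with uric acid and 18.1 ± 1.47 FPKM untreated (-0.45 ± 0.12, adjusted p = 0.0512), and passed as lower with DESeq2 (0.00774), with upper quartile scaling (0.0456) and without uric acid library 3 (0.0461). Slc2a1, the glucose transporter GLUT1, stood at 17.3 ± 0.476 FPKM with uric acid and 20.7 ± 2.78 FPKM untreated (-0.26 ± 0.10, adjusted p = 0.157), and passed as lower without untreated library 1 (0.0496). Also called, and named here with their values in view, were Aldoa, an aldolase (-0.41, adjusted p = 0.049), and Pgam1, a phosphoglycerate mutase (-0.35, 0.0442), and each was lost when any library but untreated library 1 was left out. In either direction, the list held 1, 2 and 6 called genes without uric acid library 1, 2 or 3, and 6, 1 and 1 without untreated library 1, 2 or 3. Over all features those fits called 299, 761 and 1173, and 358, 231 and 495, in the same order, against 994 with no library left out. Pfkp was lost without uric acid library 1 (0.0508) and untreated libraries 2 (0.104) and 3 (0.0553), and Tpi1 without uric acid libraries 1 (0.147) and 2 (0.0647) and untreated libraries 2 (0.147) and 3 (0.107).

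Other known hypoxia targets moved both ways. Of 30 tested, 4 rose, 4 fell and 22 missed the threshold (26.7% called, beside 7.98% of all tested features), with a median of 0.02. Ddit4, an inhibitor of mTORC1 that also answers other stresses, had 46.6, 45.9 and 37.9 FPKM with uric acid, against 17.3, 22.04 and 21.4 FPKM untreated (log2 fold change 1.10 ± 0.12, adjusted p = 0.00125, edgeR). Mxi1, a MAX partner that opposes MYC, rose to 20.0 ± 1.05 FPKM, against 13.8 ± 1.54 FPKM untreated (0.54 ± 0.10, adjusted p = 0.0129), a call lost without uric acid library 1 (0.0596). Jmjd6, an oxygenase of the same enzyme class as the EGLN proteins, fell to 26.6 ± 1.62 FPKM, against 36.6 ± 2.33 FPKM untreated (-0.46 ± 0.08, adjusted p = 0.0133), lost without uric acid library 1 (0.0633) and untreated libraries 2 (0.0757) and 3 (0.0505). Of the other called genes, named after their values were seen, Vldlr, a lipoprotein receptor, rose by 0.34 (adjusted p = 0.0236) and Zfp395 by 0.25 (0.0467). Stc1, a secreted glycoprotein, fell by 0.57 (0.0254), Ak4, a mitochondrial adenylate kinase, by 0.82 (0.0469) and Tfrc, the transferrin receptor, by 0.33 (0.0393). Vldlr and Stc1 remained called only without uric acid library 2 or 3, Zfp395 only without uric acid library 2, Ak4 only without uric acid library 3 and Tfrc only without uric acid library 1. Omission of any untreated library ended all 5 of these calls. Fixed targets that missed the threshold were Ankrd37, Ndrg1 and Kdm3a. Ankrd37 stood at 28.8 ± 1.01 FPKM with uric acid and 23.7 ± 2.91 FPKM untreated (0.28 ± 0.11, adjusted p = 0.138). Ndrg1 stood at 148 ± 12.4 FPKM with uric acid and 145 ± 1.83 FPKM untreated (0.03 ± 0.07, adjusted p = 0.85), and the demethylase gene Kdm3a at 22.9 ± 1.43 FPKM with uric acid and 24.7 ± 2.26 FPKM untreated (-0.11 ± 0.08, adjusted p = 0.422). The list held 2, 7 and 7 called genes without uric acid library 1, 2 or 3, and 3, 2 and 2 without untreated library 1, 2 or 3. Over all features those fits called 299, 761 and 1173, and 358, 231 and 495, in the same order.

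**Figure D4:**
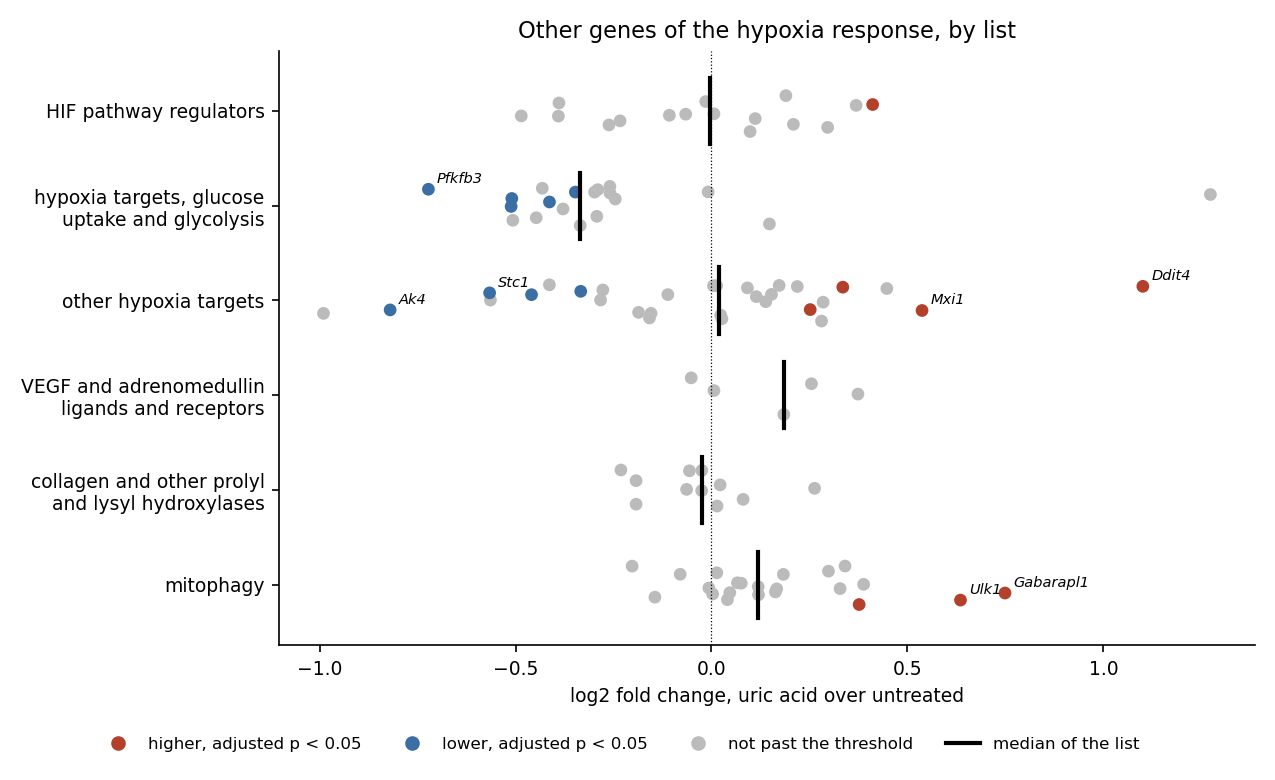
Log2 fold change of uric acid over untreated (horizontal axis) of every tested gene of the 6 lists, 1 point a gene; red is higher and blue lower past an adjusted p of 0.05 (edgeR), grey is not past it, and black bars are list medians. The median of the glucose list lies at -0.33 and that of mitophagy at 0.12.

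The partners of the secreted targets were mostly near or below detection. Of 14 matched VEGF and adrenomedullin ligands and receptors 5 reached a mean of 1 FPKM. Of these edgeR called 0, beside 7.98% of all tested features. An unadjusted p under 0.05 was reached by 1, as higher, beside 25.7%. DESeq2 called 0, beside 14.1%, and limma 0. The VEGF receptor Kdr was at 0.101 FPKM with uric acid and 0.164 FPKM untreated. Vegfb, a VEGF paralog, stood at 34.9 ± 3.25 FPKM with uric acid and 29.2 ± 1.75 FPKM untreated (0.26 ± 0.09 in log2, adjusted p = 0.111) and passed as higher without uric acid library 3 (0.0415), the 1 call of the list in that fit. Of 11 tested collagen and other prolyl and lysyl hydroxylases edgeR called 0, with a median of -0.02. An unadjusted p under 0.05 was reached by 1, as lower, and DESeq2 and limma called 0. The shares over all features are those just given, and at such shares lists this short may hold 0 calls. P4ha2, the paralog of P4ha1, stood at 29.0 ± 0.576 FPKM with uric acid and 29.5 ± 1.80 FPKM untreated (-0.02 ± 0.07, adjusted p = 0.86), and P4hb, the beta subunit shared by these enzymes, at 559 ± 50.3 FPKM with uric acid and 655 ± 54.4 FPKM untreated (-0.23 ± 0.08, adjusted p = 0.123).

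Among 22 tested mitophagy genes 3 rose, none fell and 19 missed the threshold, with a median of 0.12 (edgeR, 13.6% called, beside 7.98% of all tested features). The list also holds genes of autophagy at large, and the 3 that rose are among these. Of the whole list, 8 higher and 0 lower reached an unadjusted p under 0.05, beside 25.7%, and DESeq2 called 6 higher and 0 lower, beside 14.1%. Libraries of the groups did not overlap for 9 higher and 0 lower, beside 31.0%. Gabarapl1, whose product is bound by BNIP3L in autophagosome formation, rose to 123 ± 9.32 FPKM, against 73.1 ± 4.44 FPKM untreated (log2 fold change 0.75 ± 0.08, adjusted p = 0.00132). Ulk1, the kinase that starts autophagy, rose to 19.5 ± 1.19 FPKM, against 12.6 ± 1.09 FPKM untreated (0.64 ± 0.09, adjusted p = 0.00389), and Nbr1, a cargo receptor, rose to 66.5 ± 2.23 FPKM, against 51.2 ± 1.34 FPKM untreated (0.38 ± 0.06, adjusted p = 0.00698). Nbr1 missed the threshold when untreated library 2 was left out (0.0608), and 2 mitophagy genes were then called. Pink1, the kinase of the other main mitophagy route, stood at 9.64 ± 0.727 FPKM with uric acid and 7.36 ± 1.07 FPKM untreated (0.39 ± 0.12, adjusted p = 0.0857).

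The table's own KEGG annotation puts 5 of the 9 genes, Hif1a, the Egln genes and Vegfa, in the HIF-1 signaling pathway. Of the 72 tested genes with that term 4 rose and 5 fell, or 12.5%, beside 7.98% of all tested features, with a median log2 fold change of -0.06; this term was looked up after the other values were known.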

How the data were processed

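Per the labels' protocols, polyadenylated RNA was sequenced as read pairs of 150 bases. Tools listed by the submitters' processing notes, without roles, are HISAT2 2.0.4, StringTie 1.3.4d, cutadapt 1.9, edgeR and DESeq2. The genome build and the strand setting are not given in the sources consulted. The authors' deposited table holds, per the file headers, an FPKM and a count column per library. Its deposited counts are estimated counts, whole as given, of about 75 aligned bases each.

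Features whose mean FPKM over the 6 libraries reached 1 (12460 of them) were fitted with edgeR 4.0.16 (quasi-likelihood, TMM factors 0.992 to 1.01, no covariate) in R 4.3.3, uric acid against untreated, with a threshold of 0.05 on Benjamini-Hochberg adjusted p, two-sided. Standard errors are the log2 fold change divided by the root of F. The code of the fit was run on simulated counts, drawn independently from the same kind of model that it fits. That run checks the code and does not test the calls. Alternatives were other scalings and filters, DESeq2 1.42.0, limma 3.58.1 on log2(FPKM + 1) and log2(FPKM + 0.1), a replicate block, and each library left out. Of the genes on the 6 lists and among the markers, those not matched are not analysed here. Named genes were the 9, up to 3 called genes of each list with the smallest p, a fixed set, and the closest patterns; Kdr and genes so marked were added after its values were seen. The 9 genes and the lists were chosen with earlier results of these data known.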

Additional observations from a re-analysis of the deposited data

How the results depend on the processing

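The calls of Bnip3l and P4ha1 lie close to the threshold. The number of the 9 genes called was 2, and it was 1 with DESeq2 size factors in edgeR, with library totals in place of TMM, and among features of at least 5 FPKM. It was 0 with all features above 0 FPKM, with either limma fit, with the replicate number as a block, and with any 1 library left out (0 to 0; unadjusted p under 0.05 for 2 to 3 of the 9). DESeq2 and upper quartile scaling kept both calls. No called gene of the 9 changed sign in the 15 alternatives. Among the 9 genes and the list genes described by name, the log2 fold change crossed 0 in 4 with 1 library left out, none of them called: Hif1a ranged from -0.079 to 0.031 (above 0 without uric acid library 2), Egln3 from -0.398 to 0.0084 (without untreated library 3), Ndrg1 from -0.031 to 0.084 (below 0 without uric acid library 3) and P4ha2 from -0.077 to 0.0094 (without untreated library 2).

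Over all features 994 were called in the main fit, 1753 with DESeq2, 322 with the replicate block, and 231 to 1173 with 1 library left out. With limma 821 (pseudocount 1) and 812 (pseudocount 0.1) were called over all features. The number was 735 with all features above 0 FPKM and 929 at a minimum of 5 FPKM. Same-numbered libraries did not deviate together (correlations of 0.07, -0.05 and -0.19 for numbers 1, 2 and 3). Differently numbered libraries of the 2 groups ranged from -0.23 to 0.26. As planned, the numbers were not treated as pairs in the main fit. With the block the calls numbered 0 for regulators, 2 for the glucose list and 2 for other hypoxia targets. With DESeq2 they numbered 2 for regulators, 10 for the glucose list and 6 for mitophagy. With all features above 0 FPKM they numbered 0, 2 and 5 for regulators, the glucose list and other targets, and at a minimum of 5 FPKM 2 for regulators and 5 for mitophagy. With limma the glucose list had 3 and other targets 5 (pseudocount 1), or 2 and 5 (pseudocount 0.1). With 1 library left out the ranges were 0 to 2 for regulators, 1 to 6 for the glucose list, 2 to 7 for other targets, 0 to 1 for ligands and receptors, and 2 to 4 for mitophagy. The cause of these moves was not tested; fits without a library also have fewer degrees of freedom.

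The shares of Egln3 and Bnip3 differed by -0.532 and -3.14 percentage points, uric acid minus untreated, and by -1.29 and -5.05 points in shares of counts; both kept their sign with each library left out. Permuted within replicate numbers as a block, the exact p was 0.25 for each, the smallest that 3 pairs allow. Depth limits Adm and Egln3 most.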
